A study of Mus musculus with 14 samples.

Results

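A set of 100 genes was studied whose RNA stood lower at 1 and 2 weeks of SOX9 induction (W1 and W2) than both before induction (D0) and at 12 weeks (W12). The genes were chosen by measured values: genes with a symbol and a mean of at least 1 TPM (transcripts per 1000000) over 10 libraries were ranked by the lower of the D0 and W12 means of log2(TPM + 1) minus the higher of the W1 and W2 means, and the 100 highest of 13005 were taken. D0, W1, W2 and W12 therefore chose the genes, and W6 entered only through the filter on the mean. RNA was measured in sorted epidermal stem cells (EpdSCs) of the back skin of CD1 mice labelled male, with 2 biological replicates at each of 5 timepoints. All groups, D0 included, carried K14rtTA and TRE-myc-Sox9, in which the keratin 14 promoter of basal epidermal cells drives a DOX-dependent activator of a MYC-tagged *Sox9*. Cells of D0 came from mice of postnatal day 21 before DOX, and those of W1, W2 and W6 from mice of postnatal days 28, 35 and 63 kept on DOX since day 21. Cells of W12 came from newborn skin that was grafted onto female immunocompromised *Nude* hosts and healed before DOX was given, so 12 weeks of SOX9, grafting and the host cannot be told apart. Differences between timepoints were tested across all genes with limma on log2(TPM + 1), a gene was called at an adjusted p under 0.05, errors of differences are standard errors, and n is 2 per timepoint throughout. No library of mice without the *Sox9* transgene was analysed here. The sort kept cells negative for CD31, CD45, CD117 and CD140a, high in CD49f and Ly6A and negative for CD34.

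EpdSCs renew the interfollicular epidermis, and SOX9 is a transcription factor of the hair follicle that can redirect them towards a follicle fate. Many of the genes described here encode proteins that keratinocytes release or switch on when skin is wounded, stretched or placed under stress, such as ligands of the EGF receptor, cytokines and matrix proteases. Others encode enzymes of cholesterol synthesis, which is controlled by the sterol content of the cell, and metallothioneins, small proteins that bind zinc and copper.

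Several libraries stood apart in ways that touch these genes. MYC-SOX9 RNA was 89.6 and 45.6 TPM at D0, 3387 and 3414 TPM at W1 and 1892 and 1469 TPM at W2. It was 1108 and 859 TPM at W6 and 606 and 903 TPM at W12, so its level was not even after DOX. D0 replicate 2, labelled male, had 4.61 TPM of *Xist*, the RNA that coats the inactive X chromosome of females, and 0.0278 TPM of the Y-linked *Ddx3y*, against 0.00103 and 32.1 TPM in D0 replicate 1. Both W12 libraries had *Xist* (5.507 and 3.502 TPM) and less *Ddx3y* (11.0 and 12.9 TPM) than the other libraries with a Y-linked signal (21.9 to 32.7 TPM). *Xist* is itself one of the 100 genes, and its score fell from 1.24 to 0.00149 without D0 replicate 2. It overlaps the antisense gene *Tsix*, and reads of the 2 cannot be told apart where strand was not kept. The summed level of 30 immediate-early genes that enzymatic dissociation of tissue can induce was 42787 and 70036.5 TPM at D0, and 8318 to 17935 TPM in the other 8 libraries, where W12 (9570 and 11922 TPM) lay within the range of W1 and W2. Endothelial markers summed to 0.905 and 0.818 TPM at D0 with *Cdh5* and *Cldn5* listed at 0, to at most 3.63 TPM at W1, W2 and W6, and to 89.1 and 190.4 TPM at W12, where all 8 markers were above 1 TPM. Leukocyte markers summed to 236 and 258 TPM at W12, against 9.38 to 56.1 TPM in the other libraries, mostly through the MHC class II genes *Cd74*, *H2-Aa* and *H2-Ab1*, with *Ptprc* at 0.0184 and 0.327 TPM. Erythroid and plasma markers summed to 432 and 463 TPM at W12, against 4.15 to 30.6 TPM elsewhere, with *Alb* at 0 and 0.0263 TPM. Muscle and adipocyte markers summed to 168 and 258 TPM at W12, nearly all from *Fabp4*, with *Adipoq*, *Des* and *Myl1* at 0. Fibroblast markers summed to 17.2 and 11.4 TPM at D0, 44.7 and 42.2 TPM at W1 and 79.6 and 90.2 TPM at W2. They were 121.8 and 119.5 TPM at W6 and 39.4 and 67.8 TPM at W12. Most of each sum was *Fbln1*, with *Dcn* at 1.46 and 51.2 TPM at W6. At W6, 8 of the 10 fibroblast markers were under 1 TPM. Melanocyte markers stayed at or under 14.1 TPM. Sebaceous gland markers summed to 107 and 118 TPM at D0, 181 and 176 TPM at W1 and 404 and 400.1 TPM at W2. At W6 the sum was 424 and 305 TPM and at W12 199.6 and 276 TPM. Most of it from W1 on was *Mgst1*, with 44.2 and 28.3 TPM at D0 and 338 and 344 TPM at W2. From D0 to W2, *Scd1* went from 27.0 and 30.6 to 41.6 and 33.3 TPM and *Fasn* from 34.7 and 57.1 to 19.3 and 17.8 TPM. Basal epidermal markers summed to 36029 TPM or more in every library, mostly through *Krt14* and *Krt5*. Of the 16 basal genes fitted, 13 were called lower at W6 than at D0, against 14.1% of all genes. At W12, 10 were called lower and 2 higher than at D0, against 25.1% and 17.9% of all genes (median of W12 minus D0 -1.50). *Krt15* was 11241 and 11928 TPM at D0 and 322 and 242 TPM at W12, so the sum does not show that W6 and W12 match D0 in basal markers. The part of the transgene level and of stress RNA at D0 in the levels below was not tested. Nor was that of sebaceous gland and fibroblast markers at W2 and W6, or of other cells, host RNA or grafting at W12. In these bulk samples, fewer cells of a type and less RNA per cell cannot be told apart.

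**Figure D1:**
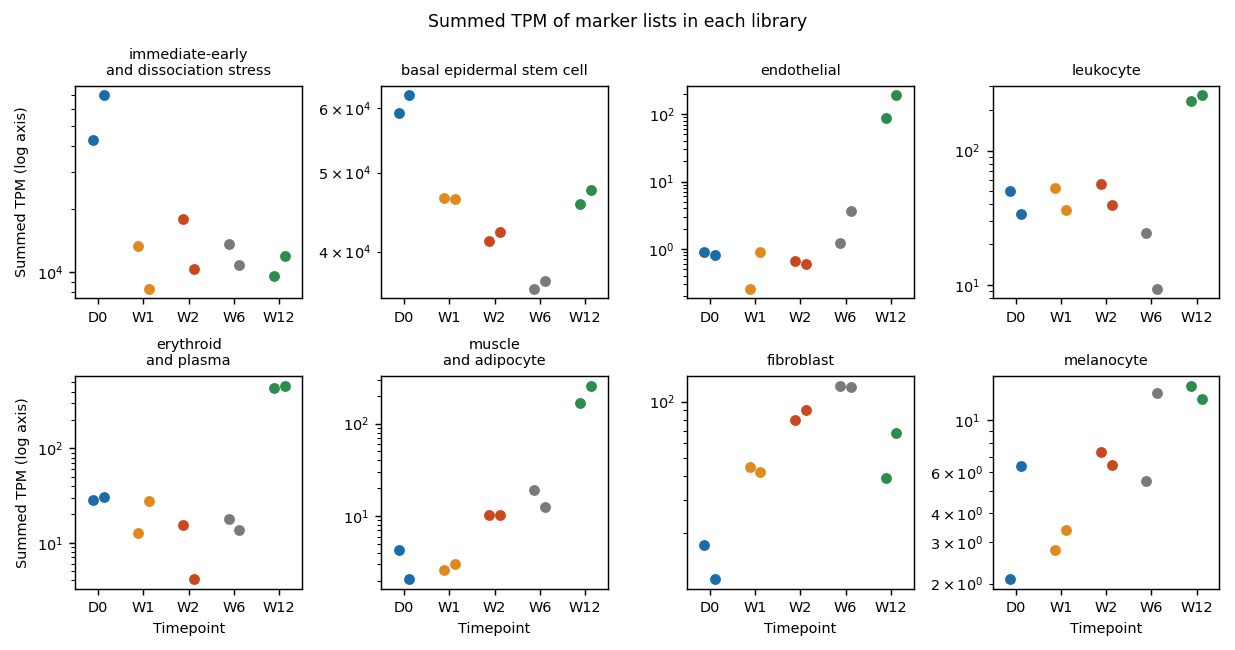
Summed TPM (log axes) of 8 marker lists in each of the 10 libraries, with 1 point per library and 2 libraries per timepoint. The immediate-early list is highest in both D0 libraries, whereas the endothelial, leukocyte, erythroid and muscle and adipocyte lists are highest in both W12 libraries.

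The score ran from 1.17 to 4.97 on the log2 scale, with a median of 1.56, which is a 2.96-fold difference between the lower of D0 and W12 and the higher of W1 and W2. The median level of the 100 genes was 22.0 and 20.9 TPM in the D0 libraries, 3.32 and 2.80 TPM at W1, 3.17 and 3.48 TPM at W2, 6.40 and 10.9 TPM at W6 and 27.96 and 27.4 TPM at W12. Silencing in the strict sense was not general: 21 genes stayed under 1 TPM in all W1 and W2 libraries, whereas 26 kept 10 TPM or more in all of them. The 4 libraries of D0 and W12 lay above the 4 of W1 and W2 without overlap for 93 of the 100 genes, against 6.34% of all genes meeting the filters, a count that the rule itself favours. The other 7 were *Hmga1b*, *Gm9870*, *Crispld2*, *Akr1c18*, *Cxcl10*, *Cxcl9* and *Igfbp2*. All 4 comparisons of the rule were called for 69 genes, against 1.02% of all 13110 genes fitted, and 79 were called lower at W2 than at D0 (6.64% of all genes) and 93 higher at W12 than at W2 (15.7%). These contrasts chose the genes, so the counts describe the choice. In the other directions, 9.06% of all genes were called higher at W2 than at D0 and 27.2% lower at W12 than at W2, and the counts of the gene lists in these comparisons are to be read beside these 4 shares. At the threshold, the last 3 genes inside were *Prelid2* (score 1.18), *2500002B13Rik* (1.17) and *Serpine2* (1.17), and the next 3 outside were *Icam1* (1.16), *Klf10* (1.16) and *Myzap* (1.16).

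**Figure D2:**
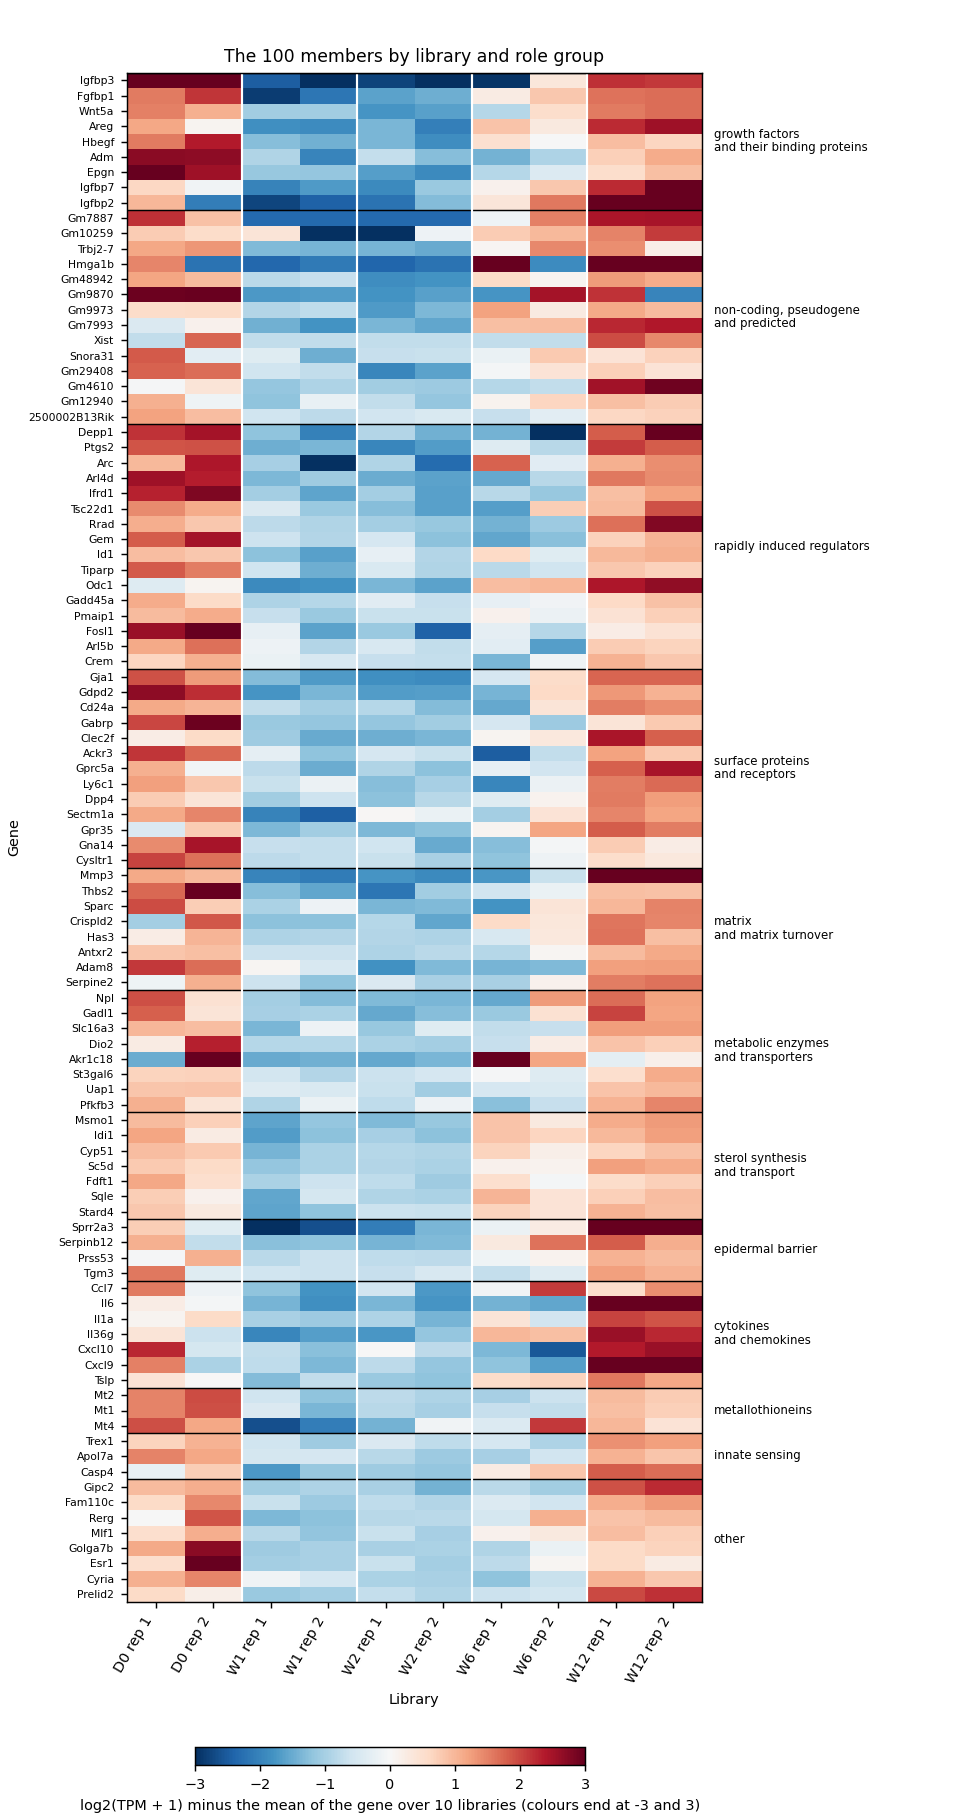
Each row is 1 of the 100 genes, grouped by role, and each column 1 library, and the colour is log2(TPM + 1) minus the mean of the gene over the 10 libraries, with colours ending at -3 and 3. Both D0 and both W12 libraries are mostly red and W1 and W2 mostly blue, as the rule requires, and W6 differs between rows and between its 2 replicates.

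The 2 D0 replicates were more than 2 log2 units apart for 10 genes, 5 higher in each replicate. *Akr1c18*, an aldo-keto reductase that reduces progesterone, was 0.178 TPM in D0 replicate 1 and 28.2 TPM in D0 replicate 2, and its score fell from 1.39 to -0.0379 without replicate 2. *Cxcl10*, a chemokine induced by interferon, was 42.2 and 5.296 TPM at D0 and its score fell from 1.28 to -0.109 without replicate 1. *Igfbp2* was 25.8 and 2.21 TPM and its score fell from 1.22 to -0.312 without replicate 1. Each of these 3 scores thus rested on a single D0 library. The score also fell without D0 replicate 1 from 1.87 to 0.0307 for *Hmga1b*, from 1.26 to 0.0331 for *Cxcl9* and from 1.195 to 0.212 for *Tgm3*, and without D0 replicate 2 from 1.63 to 0.185 for *Crispld2*. *Esr1*, the estrogen receptor, was 2.23 TPM in replicate 1 and 18.3 TPM in replicate 2, and its score of 1.25 was the same without either. When the rule was applied without D0 replicate 2, 78 of the 100 genes were chosen again, and 88 of the 100 genes then chosen were above W1 and W2 in that unused library, against 31.9% of all genes. Without D0 replicate 1, 83 were chosen again, and 97 of the 100 then chosen were above W1 and W2 in it (34.1% of all genes). Without either W12 library 93 were chosen again, and 98 of 100 were above W1 and W2 in the unused library (35.6% and 37.3% of all genes). Since W1 and W2 were selected on low values in each of these choices, the shares overstate how often a gene would pass in new samples.

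The group of 9 growth factors and their binding proteins held the gene with the highest score. This gene, *Igfbp3*, which binds insulin-like growth factors in the extracellular space (chromosome 11, 7206086 to 7213923, minus strand, GRCm38), was 551 and 595 TPM at D0, 2.22 and 1.01 TPM at W1, 1.64 and 0.812 TPM at W2, 1.32 and 21.8 TPM at W6 and 81.2 and 76.8 TPM at W12. It was high in both D0 libraries, intermediate in both W12 libraries and near 1 TPM in 5 of the other 6, the exception being W6 replicate 2. W12 was lower than D0 by 2.84 ± 0.83 (SE) on the log2 scale (adjusted p = 0.0234), so its return was partial. *Fgfbp1*, which releases fibroblast growth factors from the matrix, was 755 and 1129 TPM at D0, 34.4 and 55.5 TPM at W1, 82.4 and 92.1 TPM at W2, 303 and 448 TPM at W6 and 792 and 808 TPM at W12. Its level climbed at each step from W1 to W12 without overlap between timepoints, and W12 lay within the D0 range. *Wnt5a*, a ligand of mainly β-catenin-independent Wnt signalling, was 13.1 and 9.36 TPM at D0, 0.450 to 1.40 TPM at W1 and W2, 1.71 and 6.104 TPM at W6 and 13.6 and 14.8 TPM at W12. *Adm*, the vasodilator peptide adrenomedullin, was 47.3 and 46.3 TPM at D0, 0.862 to 3.497 TPM at W1 and W2, 1.75 and 2.84 TPM at W6 and 11.1 and 14.8 TPM at W12. Unlike *Wnt5a*, it was still at the W1 and W2 level at W6, and at W12 it was below D0 by 1.79 ± 0.37 (adjusted p = 0.00525).

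The EGF receptor ligands *Areg*, *Hbegf* and *Epgn* differed in how far they returned. *Areg* was 33.6 and 15.3 TPM at D0, 3.34 and 3.17 TPM at W1, 5.02 and 2.71 TPM at W2, 26.8 and 18.0 TPM at W6 and 72.1 and 88.8 TPM at W12. It was at its D0 level by W6 and rose past it at W12, by 1.77 ± 0.37 on the log2 scale (adjusted p = 0.00581). *Hbegf* was 181 and 317 TPM at D0, 16.0 to 24.2 TPM at W1 and W2, 85.1 and 59.6 TPM at W6 and 116 and 95.8 TPM at W12, and W12 was below D0 by 1.18 ± 0.29 (adjusted p = 0.0118). *Epgn* was 299.6 and 197 TPM at D0, 14.4 and 14.2 TPM at W1, 9.89 and 8.11 TPM at W2, 17.7 and 24.7 TPM at W6 and 47.9 and 62.2 TPM at W12, 2.13 ± 0.24 below D0 (adjusted p = 0.000321). *Hbegf* and *Epgn* thus overlapped at D0 and lay above *Areg*, whereas at W12 the order in TPM was *Hbegf*, *Areg* and *Epgn*, without overlap of libraries. Of the 9 genes of the list that were fitted, which include receptors, the 3 that fell at W2 against D0 were these same ligands, which the rule had chosen for that fall. At W12 against W2, the 3 chosen ligands and 3 of the other 6 genes were higher, and the receptor genes *Egfr*, *Erbb2* and *Erbb3* were lower. Among the other genes of the list, *Nrg1* was 1.12 and 2.62 TPM at D0 and 44.4 and 42.7 TPM at W12, and *Ereg* 0.319 and 0.258 TPM at D0 and 8.77 and 11.0 TPM at W12. Neither was called at W2 against D0 (adjusted p = 0.165 for *Nrg1* and 0.759 for *Ereg*), so both were low before induction as well as early in it.

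**Figure D3:**
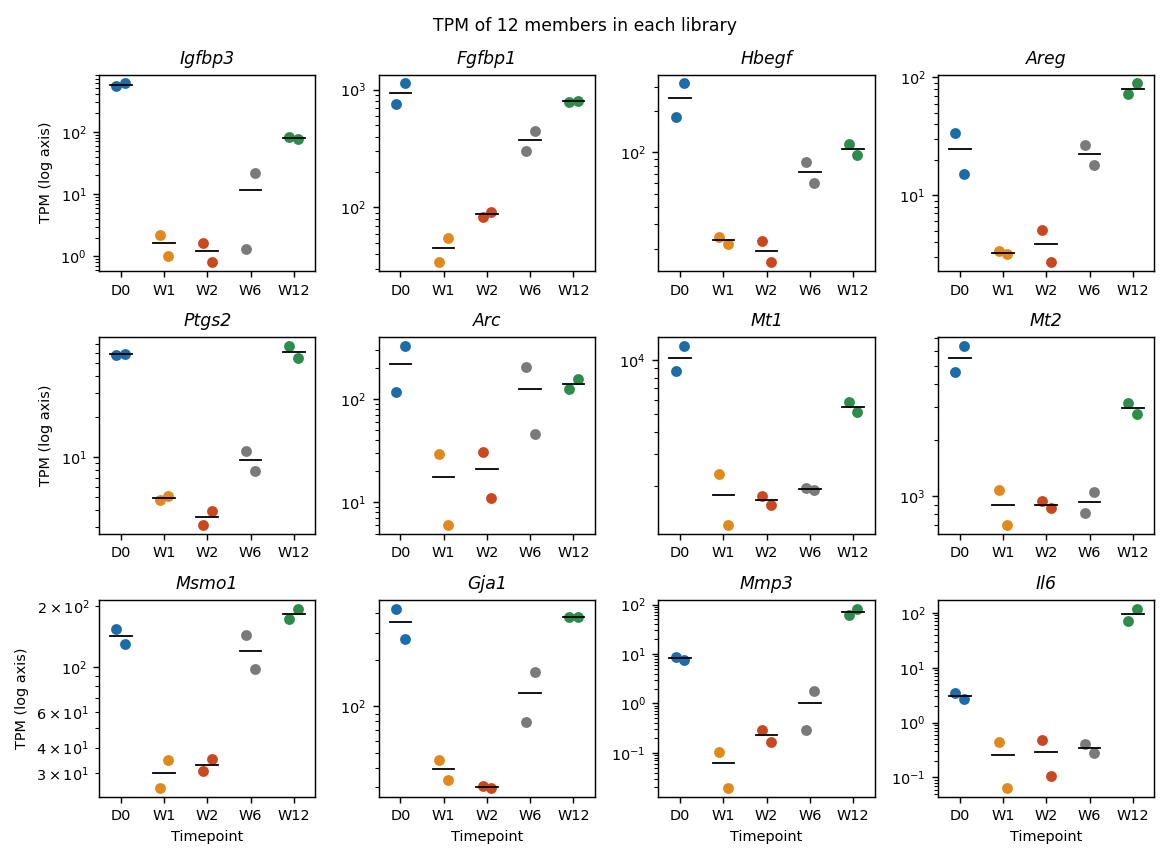
TPM (log axes) of 12 of the 100 genes in each library, with points for the 2 replicates of a timepoint and a bar for their mean. *Msmo1*, *Areg* and *Fgfbp1* are above W1 and W2 in both W6 libraries, *Mt1* and *Mt2* are not, and *Igfbp3* is split between the W6 replicates.

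The promoter of *Areg* is shown because the gene passed its D0 level at W12 and its window holds a full cAMP response element. Sequences are 300-base windows of RefSeq (GRCm38.p6), from 250 bases before to 50 after the start of the gene, and capitals mark matches of the named motif on either strand. The *Areg* window (chr5:91139349-91139648, plus strand) holds 1 match to TGACGTCA.
Areg: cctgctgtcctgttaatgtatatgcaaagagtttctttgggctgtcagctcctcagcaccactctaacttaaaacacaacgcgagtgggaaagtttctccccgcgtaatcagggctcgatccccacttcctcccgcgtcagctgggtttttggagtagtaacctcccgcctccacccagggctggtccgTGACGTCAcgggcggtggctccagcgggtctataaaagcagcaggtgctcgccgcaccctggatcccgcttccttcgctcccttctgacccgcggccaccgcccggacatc

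*Igfbp7* and *Igfbp2*, both binding proteins of insulin-like growth factors, ended far above D0. *Igfbp7* was 87.6 and 52.4 TPM at D0, 13.4 to 25.7 TPM at W1 and W2, 62.0 and 99.9 TPM at W6 and 271 and 488 TPM at W12, which was 2.41 ± 0.39 above D0 (adjusted p = 0.00176). *Igfbp2* reached 171 and 241 TPM at W12 from the split D0 values given above (4.46 ± 0.85, adjusted p = 0.00363). *Igfbp6*, which is not among the 100 genes, was 1.37 and 0.482 TPM at D0 and 34.0 and 37.2 TPM at W12. The endothelial marker sum was also highest at W12 and was 1.22 and 3.63 TPM at W6. *Igfbp7* was already higher at W6 than at W2, by 1.97 ± 0.39 (adjusted p = 0.0158). The relation of *Igfbp7* to that sum was not tested.

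Of the 100 genes, 7 encode proteins of sterol synthesis and transport, and all 7 were higher at W6 than at W2. *Msmo1*, a sterol methyl oxidase, was 153 and 130 TPM at D0, 25.4 to 34.99 TPM at W1 and W2, 143 and 97.3 TPM at W6 and 173 and 193 TPM at W12. *Idi1*, which isomerizes isopentenyl diphosphate, was 108 and 55.6 TPM at D0, 14.1 to 23.2 TPM at W1 and W2, 85.5 and 73.8 TPM at W6 and 92.7 and 111 TPM at W12. *Cyp51*, the lanosterol demethylase, was 68.0 and 61.2 TPM at D0, 12.8 to 19.1 TPM at W1 and W2, 56.3 and 40.2 TPM at W6 and 55.1 and 65.5 TPM at W12. In each of the 3 genes both W6 libraries were above all W1 and W2 libraries. *Sc5d*, *Fdft1*, *Sqle* and *Stard4*, which encode a desaturase, squalene synthase, squalene epoxidase and a sterol carrier, had scores of up to 1.59. All 7 were called higher at W6 than at W2, against 7.99% of all genes, from 1.04 ± 0.15 for *Sc5d* to 1.85 ± 0.29 for *Idi1*, and only *Sc5d* was called at W6 against D0 (lower by 0.55, adjusted p = 0.0221). *Sc5d* was also the only one of the 7 called at W12 against D0 (higher by 0.49, adjusted p = 0.0268). The rule had used W2, which was chosen low, but not W6.

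The rest of the cholesterol pathway moved less uniformly. A list of 22 genes of cholesterol synthesis and uptake was added after the members had been seen, and 11 of its genes fell at W2 against D0, 13 were higher at W12 than at W2 and 2 lower. Of its 15 genes outside the 100, 4 fell at W2 and 6 were higher at W12 than at W2. At W12 against D0, 4 genes of the list were called lower and 2 higher, against 25.1% and 17.9% of all genes. The median difference of the list was -0.97 for W2 minus D0 and 1.05 for W12 minus W2, beside 0.06 and -0.12 over all genes. These medians include the 7 genes that the rule chose on the same differences, so they do not show how the other 15 moved. *Insig1*, among the 4 lower, which retains the sterol sensor in the endoplasmic reticulum, was 44.1 and 41.3 TPM at D0, 2.66 to 11.8 TPM at W1 and W2 and 19.6 and 23.0 TPM at W12, with W12 below D0 by 0.97 ± 0.28 (adjusted p = 0.0219).

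**Figure D4:**
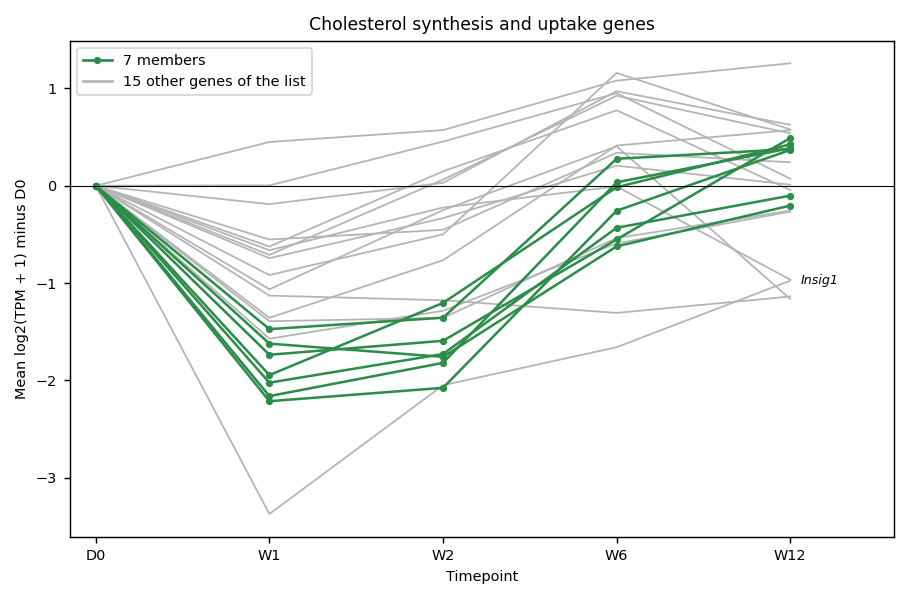
Mean log2(TPM + 1) of each timepoint minus that of D0 for the 22 genes of cholesterol synthesis and uptake, with the 7 genes that are among the 100 in green and the other 15 in grey. The green lines fall at W1 and W2 and lie between -0.62 and 0.28 at W6, and *Insig1*, 1 of the 4 genes called lower at W12 than at D0, ends at -0.97.

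Of the 3 metallothioneins, *Mt1* and *Mt2* had the highest mean levels of the 100 genes. *Mt1* (chromosome 8, 94179082 to 94180327) was 8734 and 11956 TPM at D0, 2340 and 1219 TPM at W1, 1773 and 1576 TPM at W2, 1940.1 and 1891 TPM at W6 and 5833 and 5163 TPM at W12. *Mt2*, 5514 bases away on the same strand, was 4619 and 6358 TPM at D0, 1087 and 704 TPM at W1, 943 and 861 TPM at W2, 818 and 1048 TPM at W6 and 3156 and 2755 TPM at W12. Both genes stayed at the W1 and W2 level through W6 and at W12 their mean TPM was 0.531 and 0.538 of that at D0. W12 was below D0 by 0.90 ± 0.29 for *Mt1* (adjusted p = 0.0353) and by 0.88 ± 0.25 for *Mt2* (adjusted p = 0.0203). *Mt4*, a form of squamous epithelium, was 71.1 and 41.2 TPM at D0, 2.02 to 16.4 TPM at W1 and W2, 13.04 and 80.3 TPM at W6 and 36.7 and 24.05 TPM at W12. Of the 5 fitted genes of the metal response list, *Mt1* and *Mt2* fell at W2, and they and the zinc importer *Slc39a10* were higher at W12 than at W2. *Slc39a10* did not pass the test at W2 against D0 (adjusted p = 0.467), with 14.8 and 9.31 TPM at D0 and 28.5 and 30.9 TPM at W12.

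The windows of *Mt1* (chr8:94178839-94179138) and *Mt2* (chr8:94172368-94172667), both on the plus strand, are shown because the 2 genes kept the same course. Capitals mark TGCNCNC, which is looser than the core of the metal response element, so not every match fits that core, with 3 matches in *Mt1* and 6 in *Mt2*. These letters occur in 50.4% of all windows.
Mt1: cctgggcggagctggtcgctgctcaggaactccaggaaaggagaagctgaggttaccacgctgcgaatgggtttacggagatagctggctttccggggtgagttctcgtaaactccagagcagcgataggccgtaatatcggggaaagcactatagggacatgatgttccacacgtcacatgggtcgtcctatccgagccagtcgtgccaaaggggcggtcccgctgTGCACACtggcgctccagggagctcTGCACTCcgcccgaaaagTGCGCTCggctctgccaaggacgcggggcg
Mt2: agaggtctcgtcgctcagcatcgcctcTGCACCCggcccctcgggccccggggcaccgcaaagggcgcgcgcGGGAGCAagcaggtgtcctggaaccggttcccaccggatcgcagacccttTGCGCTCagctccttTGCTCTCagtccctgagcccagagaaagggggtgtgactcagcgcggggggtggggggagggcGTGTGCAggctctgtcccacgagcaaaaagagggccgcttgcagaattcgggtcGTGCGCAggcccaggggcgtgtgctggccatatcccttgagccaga

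A group of 16 genes encodes regulators and enzymes that many cell types switch on rapidly. *Ptgs2*, the inducible cyclooxygenase, was 58.0 and 58.7 TPM at D0, 4.73 and 5.14 TPM at W1, 3.11 and 3.96 TPM at W2, 11.1 and 7.87 TPM at W6 and 67.3 and 55.0 TPM at W12. Its replicates were close at every timepoint, and W12 minus D0 was 0.06 ± 0.20 (adjusted p = 0.834). *Ifrd1*, a transcriptional co-regulator, was 1242 and 1747 TPM at D0, 80.4 to 124 TPM at W1 and W2, 139 and 114 TPM at W6 and 471 and 583 TPM at W12, 1.49 ± 0.28 below D0 (adjusted p = 0.00323). *Arl4d*, a small GTPase, was 58.7 and 51.5 TPM at D0, 2.40 to 3.90 TPM at W1 and W2, 2.55 and 4.74 TPM at W6 and 29.9 and 26.7 TPM at W12. *Depp1* was 61.4 and 76.8 TPM at D0, 2.42 to 6.53 TPM at W1 and W2, 4.20 and 0.439 TPM at W6 and 48.0 and 189 TPM at W12. With *Cxcl10* and *Ackr3*, a decoy receptor of chemokines, it had the W6 mean farthest below both the W1 and the W2 mean. *Odc1*, which makes polyamines, was an exception in this group and had 52.9 and 73.9 TPM at D0, 17.7 to 25.9 TPM at W1 and W2, 133 and 138 TPM at W6 and 379 and 440.5 TPM at W12, 2.69 ± 0.18 above D0 (adjusted p = 2.24e-05).

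Of the 30 immediate-early genes, 3 were among the 100, a larger share than the 100 taken of 13005 genes. *Arc* was 117 and 323 TPM at D0, 29.2 and 6.08 TPM at W1, 30.9 and 11.1 TPM at W2, 202 and 46.3 TPM at W6 and 124 and 158 TPM at W12. *Fosl1*, a subunit of the AP-1 transcription factor, was 613 and 993 TPM at D0, 86.0 and 32.9 TPM at W1, 46.0 and 18.0 TPM at W2, 83.5 and 55.6 TPM at W6 and 119 and 136 TPM at W12. *Gem*, a small GTPase, was 55.2 and 88.4 TPM at D0, 5.82 to 10.3 TPM at W1 and W2, 4.45 and 5.70 TPM at W6 and 24.8 and 31.6 TPM at W12. W12 was below D0 for *Fosl1* by 2.60 ± 0.52 (adjusted p = 0.00442) and for *Gem* by 1.29 ± 0.30 (adjusted p = 0.00959). Over the whole list, 20 of 30 genes fell at W2 against D0 and 5 were higher and 5 lower at W12 than at W2. Of the 27 genes outside the 100, 17 fell at W2 and 2 were higher at W12 than at W2. At W12 against D0, 23 of the 30 were lower and 2 higher, against 25.1% and 17.9% of all genes. The list as a whole thus fell from D0 and was not back at W12, with a median W12 minus D0 difference of -2.43.

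Among the other regulators, *Tiparp*, an ADP-ribosyltransferase, was 243 and 197 TPM at D0, 23.7 to 48.9 TPM at W1 and W2 and 118 and 109 TPM at W12, below both D0 libraries. *Id1*, an inhibitor of basic helix-loop-helix factors, was 239.5 and 220.1 TPM at D0, 40.1 to 106 TPM at W1 and W2 and 248.6 and 263 TPM at W12, above both. *Pmaip1*, a p53 target that promotes apoptosis, was 71.99 and 80.3 TPM at D0, 16.4 to 22.8 TPM at W1 and W2 and 50.4 and 61.0 TPM at W12. It was the 1 p53 target among the 100, of 27 fitted, and over that list 8 genes fell and 1 rose at W2.

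A further 7 genes encode cytokines and chemokines, all with a higher mean at W12 than at D0. *Il6* was 3.40 and 2.64 TPM at D0, 0.0652 to 0.477 TPM at W1 and W2, 0.409 and 0.278 TPM at W6 and 70.6 and 118 TPM at W12. It was the gene with the largest ratio of W12 to D0 among the 100 (31.2-fold in mean TPM), with 4.53 ± 0.30 on the log2 scale (adjusted p = 2.16e-05). *Il36g*, an epidermal cytokine of the interleukin-1 family, was 10.2 and 4.53 TPM at D0, 1.21 to 2.89 TPM at W1 and W2, 16.3 and 15.1 TPM at W6 and 51.2 and 40.6 TPM at W12. *Il1a* was 2.58 and 4.063 TPM at D0, 0.286 to 0.770 TPM at W1 and W2, 3.40 and 1.28 TPM at W6 and 12.7 and 11.4 TPM at W12. *Tslp*, an alarmin of epithelia, was 5.38 and 3.80 TPM at D0, 0.926 to 1.88 TPM at W1 and W2, 5.99 and 6.596 TPM at W6 and 13.2 and 9.69 TPM at W12. *Il36g* and *Tslp* were at or above D0 by W6, whereas *Il6* was still at the W1 and W2 level. The leukocyte sum given above was also highest in both W12 libraries, and its part in these levels was not tested. *Cxcl9* was 8.79 and 0.799 TPM at D0 and 26.3 and 34.9 TPM at W12, and *Ccl7* 17.7 and 4.66 TPM at D0, 0.816 to 3.22 TPM at W1 and W2 and 8.16 and 15.5 TPM at W12. Of the 24 fitted genes of the list of inflammatory cytokines and chemokines, which was added after the values had been seen, 7 fell and 1 rose at W2 against D0, and 14 were higher and 5 lower at W12 than at W2. Of its 17 genes outside the 100, 3 fell at W2 and 8 were higher at W12 than at W2. Of the 23 fitted NF-κB targets, of which *Il1a* alone was among the 100, 8 fell at W2 and 12 were higher at W12 than at W2.

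The *Il6* window (chr5:30012864-30013163, plus strand) is shown because *Il6* had the largest rise past D0, with 1 match to GGANTTTCC, a subset of NF-κB sites, in capitals.
Il6: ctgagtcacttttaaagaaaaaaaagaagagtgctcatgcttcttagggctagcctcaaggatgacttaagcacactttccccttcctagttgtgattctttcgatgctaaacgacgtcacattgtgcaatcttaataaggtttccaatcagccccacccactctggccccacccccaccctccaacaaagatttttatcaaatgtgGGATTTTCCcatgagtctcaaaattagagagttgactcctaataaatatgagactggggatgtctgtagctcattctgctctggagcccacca

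Windows were found for 66 of the 100 genes. The AP-1 letters TGANTCA were in 18.2% of these 66 and in 7.93% of all 27025 windows, TGACGTCA in 7.58% and 1.88%, GGANTTTCC in 4.55% and 1.23%, and TATAAA, the letters of a core promoter element, in 25.8% and 14.2%. The letters TGCNCNC were in 45.5% and 50.4%, ACGTG in 18.2% and 19.7%, CACGTG in 9.09% and 7.24%, GAAANNGAA in 10.6% and 8.57%, ACAATG of SOX factors in 9.09% and 12.8% and AGATAA of factors of the Gata family in 9.09% and 11.4%. The letters TCACNCCAC of the sterol response element, added after the genes were seen, were in *Mt4* and *Tiparp* and in none of the 4 sterol genes with a window. Each match is a description of letters in a window, with no test. CACGTG contains ACGTG, so these overlap.

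Of the 13 surface proteins and receptors, 4 were called higher and 3 lower at W12 than at D0, and of the 8 genes of the matrix and its turnover 1 was called in each direction, against 17.9% higher and 25.1% lower among all genes. *Gja1*, the gap junction protein connexin 43, was 426 and 274 TPM at D0, 29.9 to 45.1 TPM at W1 and W2, 79.7 and 166 TPM at W6 and 377 and 379 TPM at W12, within the D0 range. *Cd24a* was 118 and 110 TPM at D0, 20.97 to 31.4 TPM at W1 and W2, 17.9 and 70.4 TPM at W6 and 156 and 141 TPM at W12. *Gdpd2*, a membrane phosphodiesterase, was 106 and 76.7 TPM at D0, 3.92 to 5.51 TPM at W1 and W2, 5.39 and 24.2 TPM at W6 and 40.5 and 33.7 TPM at W12. In both *Cd24a* and *Gdpd2*, W6 replicate 2 was above all W1 and W2 libraries and W6 replicate 1 was not. *Mmp3*, a secreted protease of the matrix, was 8.59 and 7.63 TPM at D0, 0.0198 to 0.291 TPM at W1 and W2, 0.296 and 1.76 TPM at W6 and 61.5 and 80.9 TPM at W12. Like *Il6*, it was below both D0 libraries at W6 and rose past D0 at W12, by 2.98 ± 0.33 (adjusted p = 0.000284). *Thbs2*, a matrix thrombospondin, was 39.9 and 120.2 TPM at D0, 1.77 to 5.001 TPM at W1 and W2 and 22.0 and 21.8 TPM at W12, and *Sparc*, a collagen-binding protein, 330.2 and 142 TPM at D0, 32.1 to 76.2 TPM at W1 and W2 and 171 and 240.3 TPM at W12. *Has3*, which makes hyaluronan, was 1.32 and 3.03 TPM at D0, under 0.1 TPM at W1 and W2, 0.438 and 1.51 TPM at W6 and 5.15 and 2.76 TPM at W12.

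Among the metabolic enzymes and transporters, *Npl*, a lyase of sialic acid, was 71.1 and 24.98 TPM at D0, 6.32 to 8.33 TPM at W1 and W2, 5.56 and 44.8 TPM at W6 and 59.9 and 43.0 TPM at W12. *Slc16a3*, a lactate exporter, was 37.5 and 35.8 TPM at D0, 6.47 to 16.5 TPM at W1 and W2, 10.6 and 10.9 TPM at W6 and 44.8 and 44.7 TPM at W12. *Pfkfb3*, an activator of glycolysis, was 6.62 and 3.71 TPM at D0, 0.932 to 2.26 TPM at W1 and W2, 0.524 and 1.25 TPM at W6 and 6.42 and 8.94 TPM at W12. Of 28 hypoxia genes, 2 (*Pfkfb3* and *Adm*) were among the 100. In that list 6 fell and 2 rose at W2 against D0, and 10 were higher and 4 lower at W12 than at W2. Among all genes these shares were 6.64%, 9.06%, 15.7% and 27.2%. The 4 genes of the epidermal barrier were *Sprr2a3*, *Tgm3*, *Serpinb12* and *Prss53*. *Sprr2a3*, a small proline-rich protein, was 19.7 and 8.65 TPM at D0, 0.424 to 3.85 TPM at W1 and W2, 10.03 and 13.8 TPM at W6 and 286 and 229 TPM at W12. Its ratio of W12 to D0 was the 2nd largest in mean TPM (18.2-fold). On the log2 scale its difference of 4.19 was below that of *Igfbp2* (4.46). *Tgm3*, a transglutaminase, was 5.29 and 0.609 TPM at D0, 0.282 to 0.504 TPM at W1 and W2 and 3.89 and 3.32 TPM at W12. Of 29 fitted genes of epidermal differentiation, 1 (*Tgm3*) was among the 100. In that list 6 genes rose and 2 fell at W2 against D0, and 12 were higher and 5 lower at W12 than at W2.

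A further 14 genes were pseudogenes, non-coding RNAs, predicted genes, a T cell receptor J segment (*Trbj2-7*) or a near-copy of another gene, for which reads of related sequences cannot be told apart with certainty. *Gm7887*, a processed pseudogene, was 22.0 and 8.26 TPM at D0, listed at 0 in all 4 W1 and W2 libraries, 3.60 and 13.4 TPM at W6 and 26.5 and 26.9 TPM at W12. *Hmga1b*, a near-copy of *Hmga1*, was 14.3 and 0.190 TPM at D0, 219 and 0.502 TPM at W6 and 46.9 and 51.8 TPM at W12, and *Gm9870* was 0.384 and 25.8 TPM at W6 and 20.5 and 0.212 TPM at W12. The 2 W6 replicates of *Hmga1b* and of *Gm9870*, and the W12 replicates of *Gm9870*, thus lay at opposite ends.

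Of the 100 genes, 16 lay within 500 kilobases of another one (GENCODE M21, GRCm38), in pairs or in runs. *Epgn* and *Areg* were 104384 bases apart and *Cxcl9* and *Cxcl10* 18559 bases apart on chromosome 5, and *Mt4* was 33633 bases from *Mt2* on chromosome 8. Within a pair the course was not always shared: *Areg* was above D0 at W12 and *Epgn* below it.

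The W6 libraries, which the ranking did not use, sorted the 100 genes. At W6, 62 genes lay between the higher of the W1 and W2 means and the lower of the D0 and W12 means, 19 at or below the former, and 19 at or above the latter. The median gene had covered 37.8% of the distance on the log2 scale. Of the sterol genes the median was 87.6%, of cytokines and chemokines 68.6%, of growth factors and their binding proteins 65.0%, of the rapidly induced regulators 14.2% and of metallothioneins 10.7%. Of the other groups it was 85.6% for the non-coding, pseudogene and predicted genes, 74.7% for the epidermal barrier, 30.1% for metabolic enzymes and transporters, 22.5% for the matrix, 21.9% for genes of other roles, 17.9% for surface proteins and -7.54% for innate sensing. The W6 replicates were not alike: replicate 2 was higher for 66 of the 100 genes, against 57.9% of all genes. At W6, 31 of the 100 were called higher and none lower than at W2, against 7.99% and 8.31% of all genes. Of the genes called, 7 were sterol genes, 6 growth factors or their binding proteins and 6 non-coding, pseudogene or predicted genes. W2 was chosen low, which favours a call of higher. With either W2 library left out, far fewer of the 100 were called higher, and far fewer of all genes too. Against D0, 53 were lower at W6 and 3 higher (14.1% and 18.3% of all genes), and the 3 higher were *Odc1*, *Il36g* and *Gm7993*. Against W12, 61 were lower and none higher (6.66% and 13.5% of all genes). With either W12 library left out, fewer of the 100 and fewer of all genes were called. D0 and W12 were chosen high, which favours the calls of lower at W6 too. At an unadjusted p under 0.05 in limma, 43 of the 100 were higher and none lower at W6 than at W2, against 17.3% and 17.0% of all genes, and 75 were lower and none higher at W6 than at W12, against 10.3% and 24.1%.

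**Figure D5:**
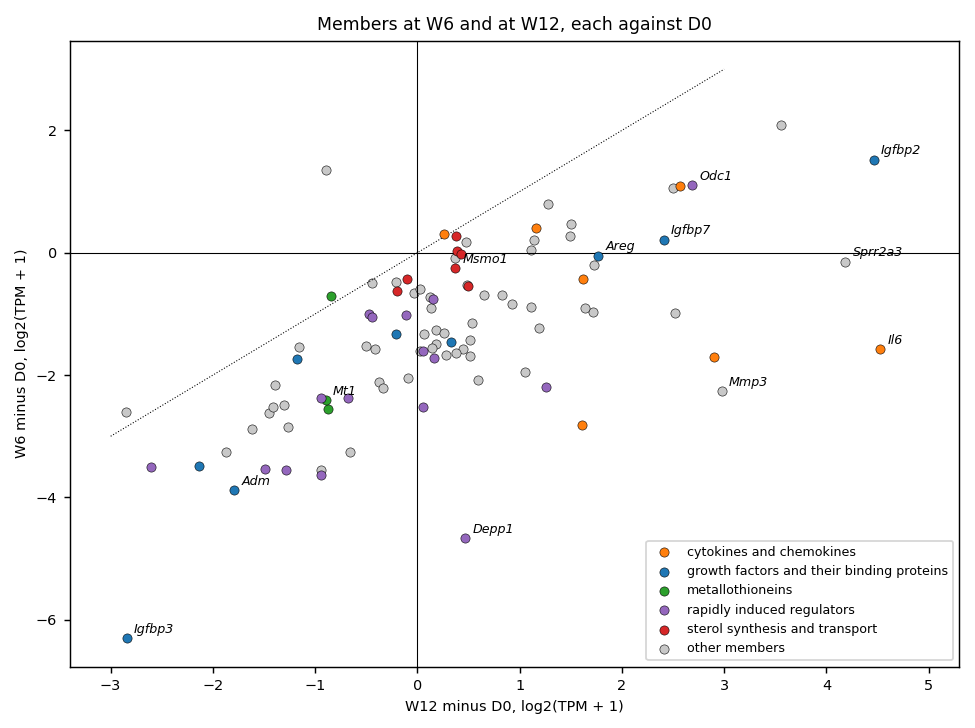
Difference of each of the 100 genes from D0 at W6 (vertical axis) and at W12 (horizontal axis), in log2(TPM + 1), with the dotted line marking equal differences. Sterol genes cluster near 0 on both axes, *Igfbp3* lies far below 0 on both, and *Il6* and *Mmp3* lie to the right and below 0.

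At W12, 61 of the 100 genes had a higher mean than at D0 and 39 a lower one. W12 lay within 1.5-fold of D0 in mean TPM for 42 genes, more than 4-fold above it for 12 and more than 4-fold below it for 6. W12 was called higher than D0 for 22 genes and lower for 17, against 17.9% and 25.1% of all genes, so the called shares among the 100 were near or below those of all genes. By roles, 5 of the 7 cytokines and chemokines were called higher and none lower, and 2 of the 3 metallothioneins were called lower and none higher. Of the 16 rapidly induced regulators, 5 were called lower and 2 higher. Without W12 replicate 2, and without D0 replicate 2, fewer of the 100 were called in either direction, and fewer of all genes too. The median difference over the 100 was 0.18, and -0.08 over all genes. The remaining 18 of 27 lists fixed for this work, among them heat shock, interferon-stimulated, NRF2, unfolded protein, glucocorticoid, clock, splicing, Notch, basal, hair follicle and cell cycle genes, had no gene among the 100. With 100 taken of 13005 genes, 0 does not show that a list lacked the course. The score was above 0 for 14 of 21 interferon-stimulated, 10 of 17 unfolded protein and 8 of 14 heat shock genes. It was so for 10 of 24 splicing, 6 of 18 cell cycle, 3 of 14 NRF2, 3 of 16 basal and 2 of 12 glucocorticoid genes. For clock it was 1 of 18, for Notch 0 of 10 and for hair follicle 0 of 17, beside 1915 of all 13005. The interferon list does not hold *Cxcl9* and *Cxcl10*, which interferon also induces and which are among the 100. The Wnt ligand list had 1 (*Wnt5a*), and 8 of its 11 fitted genes fell at W2, *Wnt5a* included. At W12 against W2, *Wnt5a*, which the rule had chosen for it, was higher, and 3 genes were lower. The list of abundant long non-coding RNAs, of which 10 of 14 were fitted, had 1 (*Xist*), and 5 of the 10 fell at W2 and 7 were higher at W12 than at W2.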

How the data were processed

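RNA was measured by RNA-seq of sorted EpdSCs. The authors trimmed reads with Skewer, quantified transcripts with Salmon (v 1.4.0) against a GENCODE index of GRCm38 with the transgene added, and summed them to genes with Tximport (v 1.12.3). The deposited values are TPM, which sum to 1000000 in each library and carry no depth, so the precision of single values is unknown. The table of the authors' own placode comparison holds only fold changes and P values for 4 libraries and was not used. All 10 columns were matched to samples by name.

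The 13110 genes whose TPM averaged 1 or more were tested on log2(TPM + 1), which understates changes of low genes, with limma 3.58.1 in R 4.3.3: 5 timepoint means over all 10 libraries, eBayes with a trend, Benjamini-Hochberg adjustment over all genes, called at an adjusted p under 0.05. Errors are standard errors of that fit, with n = 2 per timepoint. The members and lists were chosen with earlier results of these data known. A symbol given as the text NA was read as none. Named genes were the 15 highest scores, members of each of 27 fixed lists, the 4 highest levels, the extremes at W6 and those at the threshold; the other members named, the 12 role groups and 4 further lists were chosen after values were seen. Of the cholesterol list, 2 genes are not reported here, and its counts leave them out. Markers of other cells, stress and sex were summed. Gene positions are from GENCODE M21 (GRCm38) and promoters from RefSeq (GRCm38.p6). Libraries that share a number at 2 timepoints came from separate mice. The correlations of their deviations ran from -0.129 to 0.182. Alternatives were another pseudocount, other filters, other scalings, eBayes without trend, fewer libraries, a minimum change, a replicate block, each library left out, and other forms of the score. Python 3.11.15, numpy 2.4.6, pandas 2.3.3 and matplotlib 3.10.9 were used.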

Additional observations from a re-analysis of the deposited data

How the results depend on the processing

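The rule kept 75 to 99 of the 100 genes under the other pseudocount, filters, scalings and forms of the score, 98 where the text NA was read as a symbol, and 78 to 93 without 1 library. With all genes above 0 TPM, 17 genes were called at W6 against W2, in place of 31, and 43 in all 4 comparisons of the rule, in place of 69. With only the libraries compared, 32 were called at W6 against D0, 19 at W6 against W2 and 45 in all 4. Without 1 library, calls ranged from 22 to 43 at W12 against D0, 52 to 58 at W6 against D0, 32 to 67 at W6 against W12, 9 to 40 at W6 against W2 and 43 to 77 in all 4. The counts over 1.5 times lower came without W12 replicate 2 at W12 against D0, without either W12 library at W6 against W12, without either W2 library at W6 against W2, and without replicate 2 of W1 or of W2 in all 4. With fewer libraries the fit has fewer degrees of freedom, and in each of these cases the calls over all genes fell too. The same-numbered libraries share only a number: the replicate block gave 37 calls at W12 against D0, 55 at W6 against D0, 57 at W6 against W12, 29 at W6 against W2 and 64 in all 4, and 2 further blocks were chosen after seeing the data. The block with the D0 numbers crossed gave 39 at W12 against D0 and 56 at W6 against D0, and the block with the W6 numbers crossed gave 62 at W6 against W12. The score turned negative with the lowest and highest replicate in place of means for *Hmga1b* (-0.0933), *Gm9870* (-0.348), *Crispld2* (-0.164), *Akr1c18* (-0.124), *Cxcl10* (-0.495), *Cxcl9* (-0.174) and *Igfbp2* (-0.772), and without 1 library it ranged from -0.271 to 3.88 for *Gm9870*, from -0.0379 to 1.61 for *Akr1c18*, from -0.109 to 2.67 for *Cxcl10* and from -0.312 to 2.75 for *Igfbp2*. The cause was not tested.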

Other observations

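Without the requirement of a symbol, 2 further genes would have entered. ENSMUSG00000093956.1, a small nuclear RNA, was 21.5 and 8.71 TPM at D0, 12.19 and 0 TPM at W1, 11.4 and 0 TPM at W2, 12.6 and 24.5 TPM at W6 and 22.6 and 10.4 TPM at W12. ENSMUSG00000093264.1, a microRNA gene, was 1.66 and 5.06 TPM at D0, listed at 0 at W1 and W2, 3.81 and 0 TPM at W6 and 0.809 and 214 TPM at W12.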
